A study of Mus musculus with 4 samples.

Results

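The eosinophil granule genes described here are Epx, Prg2, Il5ra, Ear1, Ear2, Ear6 and Ear10, 7 of the 22072 gene symbols in the deposited RNA sequencing tables. They were taken by symbol from all 4 libraries, each symbol had 1 transcript row, and the 4 Ear genes, a family in which Ear1, Ear2 and Ear10 are near-identical copies, were also summed. The cells were bone marrow leukaemic cells of C57BL/6 mice, and every group carried the MLL-AF9 knock-in allele (MLL-AF9-/+), a fusion of the Mll1 gene that drives acute myeloid leukaemia. The groups were Meis1f/f 4-OHT and Meis1f/f vehicle, both of genotype Meis1f/fCreER+/- MLL-AF9-/+, and control 4-OHT and control vehicle, both MLL-AF9-/+ with no CreER or floxed Meis1 in the labels. 4-hydroxytamoxifen (4-OHT), which activates the CreER recombinase, was given at 1000 nM for 24 h. The medium held IL-3, GM-CSF, IL-6 and SCF at 10 ng/ml, so IL-5, the main eosinophil cytokine, was not among the cytokines the labels list. There was 1 library per group, so no difference below has a test, a replicate check or a p-value. The sources used here do not say how many animals or clones stand behind each culture, how old the animals were or which promoter drives CreER.

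Eosinophils are granulocytes whose large granules hold strongly basic proteins. Major basic protein (Prg2) forms the crystalline core, and eosinophil peroxidase (Epx) and, in the mouse, the eosinophil-associated ribonucleases (Ear genes, members of the RNase A superfamily) lie in the matrix around it. Granule genes are switched on early in the lineage under GATA and C/EBP factors, while the IL-5 receptor alpha chain (Il5ra) and the eotaxin receptor (Ccr3) mark commitment and later stages.

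The Ear sequences come first because they decide how far the Ear values can be read one by one. Over their coding sequences Ear2 and Ear10 were 97.0% identical, Ear1 and Ear2 95.1%, and Ear1 and Ear10 94.4%, while Ear6 was 87.3% to 87.6% identical to the other members (transcripts of GENCODE M21 on GRCm38, global alignment). The most variable gapless stretch of 60 coding bases shared by the 4 members, bases 68 to 127 of each coding sequence on chromosome 14, is shown 5′ to 3′ with capitals at each base that differs from Ear2.
Ear1: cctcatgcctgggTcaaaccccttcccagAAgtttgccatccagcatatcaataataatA
Ear2: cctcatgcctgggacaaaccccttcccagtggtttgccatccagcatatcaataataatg
Ear6: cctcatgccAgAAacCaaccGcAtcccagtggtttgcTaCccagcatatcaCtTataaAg
Ear10: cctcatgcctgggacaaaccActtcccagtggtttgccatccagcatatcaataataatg
Ear10 differed from Ear2 at 1 base of this stretch, Ear1 at 4 and Ear6 at 11. Of all 45-base stretches of the reference transcript, 45 bases being close to the value of 1 read estimated from the files, 61.4% in Ear1, 59.0% in Ear10 and 45.6% in Ear2 also occurred in another gene, in each case another Ear gene or Ear pseudogene. The share was 2.39% in Ear6, 0.310% in Ear11 (Rnase2a in the reference) and 0% in Epx and Prg2. How the authors' counting split reads between copies is not stated, so the single values of Ear1, Ear2 and Ear10 are uncertain. Ear6 and Ear11 share little sequence with other reference genes, but in the deposited tables a row named Ear7 lies inside that of Ear6, so the Ear6 value is also subject to a split.

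Epx and Prg2 were higher in Meis1f/f than in control cells under both treatments. Epx (chromosome 11, 87677499 to 87689038; all gene positions are the deposited ones, whose genome build could not be settled) was at 113 FPKM (fragments per kilobase of transcript per M mapped fragments) in Meis1f/f 4-OHT, 158 in Meis1f/f vehicle, 37.6 in control 4-OHT and 56.2 in control vehicle. Both Meis1f/f libraries stood above both control libraries, and within each genotype the 4-OHT library was the lower one. The ratio of Meis1f/f to control was 3.0 under 4-OHT (95% exact counting interval 2.86 to 3.16) and 2.82 under vehicle (2.73 to 2.92). On the log2(FPKM + 1) scale, which is used for all log2 differences, these were differences of 1.56 and 1.48. In bulk RNA more cells of a type and more RNA per cell cannot be told apart. The intervals come from estimated reads, cover counting error only and take in neither differences between cultures nor how reads of near-identical copies were divided.

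Prg2, the gene of major basic protein (chromosome 2, 84820617 to 84823789), was the highest member in every library. It was at 456 FPKM in Meis1f/f 4-OHT, 509 in Meis1f/f vehicle, 157 in control 4-OHT and 237 in control vehicle. Its rank among the 21917 symbols with a usable row was 145, 124, 410 and 270 in that order, so it was among the more abundant transcripts of these leukaemic cells. The ratio of Meis1f/f to control was 2.90 under 4-OHT (2.77 to 3.02) and 2.15 under vehicle (2.09 to 2.21), or 1.53 and 1.10 on the log2 scale. Prg3, the neighbouring gene of a second major basic protein and not a member, was at 19.8, 21.0, 7.09 and 9.93 FPKM over the libraries as listed for Prg2. The ratio of Prg2 to Prg3 within a library ran from 22.2 to 24.2. The ratio of Prg2 to Epx was 4.03, 3.22, 4.18 and 4.22, lowest in Meis1f/f vehicle.

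**Figure D1:**
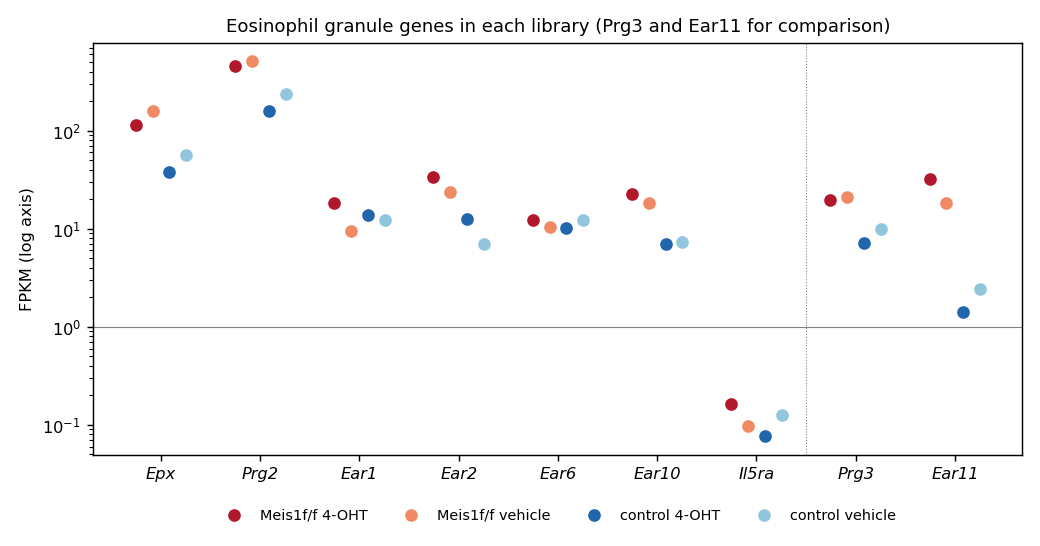
FPKM on a log axis of the 7 genes in each library, with Prg3 and Ear11 right of the dotted line; each point is 1 library and the grey line marks 1 FPKM. Epx, Prg2, Ear2 and Ear10 stood higher in both Meis1f/f libraries than in both control libraries, Ear1 and Ear6 did not, and Il5ra lay below 0.2 FPKM throughout.

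The IL-5 receptor gene was close to 0 in every library. Il5ra (chromosome 6, 106660372 to 106699031) was at 0.163 FPKM in Meis1f/f 4-OHT, 0.0969 in Meis1f/f vehicle, 0.0771 in control 4-OHT and 0.126 in control vehicle, from an estimated 10.7, 14.7, 6.1 and 12.7 reads. It did not reach 1 FPKM in any library and takes no part in the counts below. All 6 pairwise ratios of the libraries had intervals that hold 1, and between the genotypes under 4-OHT the interval ran from 0.742 to 7.21, so a difference was not detectable at this depth. Ccr3, in the order of libraries used for Il5ra, was at 0.567, 0.291, 0.193 and 0.0463 FPKM, and Siglec5 (Siglec-F, a surface lectin of mouse eosinophils) at 5.49, 5.06, 2.52 and 1.97 FPKM. Between the genotypes Ccr3 had ratios of 2.94 under 4-OHT (1.52 to 5.85) and 6.30 under vehicle (2.47 to 26.2), and Siglec5 2.17 (1.76 to 2.70) and 2.58 (2.13 to 3.12), so both were higher in Meis1f/f cells, Ccr3 at levels under 1 FPKM. Of the defining eosinophil markers, Prg2 and Epx were thus the abundant ones, and Il5ra and Ccr3 were near 0.

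Among the ribonuclease genes, Ear2 and Ear10 were higher in Meis1f/f cells. Ear2 (chromosome 14, 44680318 to 44681196) was at 33.5 FPKM in Meis1f/f 4-OHT, 23.7 in Meis1f/f vehicle, 12.6 in control 4-OHT and 7.03 in control vehicle. Both Meis1f/f libraries were above both control libraries, the 4-OHT library was the higher one within each genotype, and none of the 6 pairwise intervals held 1. The ratio of Meis1f/f to control was 2.67 under 4-OHT (2.25 to 3.17) and 3.37 under vehicle (2.82 to 4.06). Ear10 (chromosome 14, 44500562 to 44501033) was at 22.5, 18.1, 6.93 and 7.35 FPKM in the order given for Ear2. The 2 control libraries did not differ beyond the interval of their ratio (0.687 to 1.29), and both lay below both Meis1f/f libraries. The genotype ratio was 3.25 under 4-OHT (2.48 to 4.34) and 2.46 under vehicle (1.97 to 3.13).

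Ear1 and Ear6 showed no such genotype difference. Ear6 (chromosome 14, 52473442 to 52474317), the member that shares least sequence with other reference genes, was at 12.4 FPKM in Meis1f/f 4-OHT, 10.5 in Meis1f/f vehicle, 10.2 in control 4-OHT and 12.3 in control vehicle. All 6 pairwise ratios had intervals that hold 1, and the genotype ratio was 1.22 under 4-OHT (0.972 to 1.52) and 0.849 under vehicle (0.716 to 1.00). Ear1 (chromosome 14, 44396430 to 44397304) was at 18.2, 9.56, 13.8 and 12.2 FPKM in that order of libraries. It was highest in Meis1f/f 4-OHT and lowest in Meis1f/f vehicle, so the genotype groups overlapped, and the 2 control libraries did not differ beyond counting error. The genotype ratio of Ear1 was 1.31 under 4-OHT (1.09 to 1.59) and 0.783 under vehicle (0.658 to 0.931). The ratio of Ear2 to Ear1 differed between the genotypes. Within a library Ear2 was 1.85 and 2.48 times Ear1 in Meis1f/f 4-OHT and vehicle. It was 0.909 and 0.576 times Ear1 in control 4-OHT and vehicle. A row named Ear12 lies inside that of Ear2. With the Ear12 row added, Ear2 was at 16.3 and 12.1 FPKM in control 4-OHT and vehicle, beside 13.8 and 12.2 for Ear1. The order of the Ear members also differed between 4-OHT and vehicle within each genotype. Since Ear1 and Ear2 share sequence, how much of the shift in the ratio of Ear2 to Ear1 lies in the splitting of reads was not tested.

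In a sum, a split of reads between the summed copies cancels in part, but reads given to rows or pseudogenes outside the sum do not return. The 4 Ear members together were at 86.6 FPKM in Meis1f/f 4-OHT, 61.8 in Meis1f/f vehicle, 43.5 in control 4-OHT and 38.9 in control vehicle. Both Meis1f/f sums were above both control sums, with ratios of 1.99 under 4-OHT and 1.59 under vehicle (log2 differences of 0.98 and 0.65, both short of 1). All 10 rows with an Ear symbol summed to 135, 92, 52.4 and 49.8 FPKM, with ratios of 2.57 and 1.85. Sums of rows of unequal length carry no counting interval. Of the 6 other rows, Ear4 and Ear14 were listed at 0 and Ear5 was under 0.1 FPKM in every library. The rows of Ear12 and Ear7 lie inside those of Ear2 and Ear6 and were marked as low in data by the authors. With them added, Ear2 was at 45.9, 30.3, 16.3 and 12.1 FPKM and Ear6 at 16.2, 15.6, 13.9 and 15.6 FPKM. The genotype ratio of Ear2 with Ear12 was 2.82 under 4-OHT and 2.50 under vehicle. That of Ear6 with Ear7 was 1.16 under 4-OHT and 0.997 under vehicle.

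Ear11, a ribonuclease gene outside the 7 whose sequence is nearly unique, was the largest of the 6 other rows in both Meis1f/f libraries and stood below Ear12 and Ear7 in both control libraries. It was at 32 FPKM in Meis1f/f 4-OHT, 18.4 in Meis1f/f vehicle, 1.43 in control 4-OHT and 2.44 in control vehicle. The genotype ratio was 22.4 under 4-OHT (14.5 to 35.8) and 7.52 under vehicle (5.58 to 10.3), larger than that of any of the 7 genes. Ear11 made up 23.7% and 20.0% of the summed Ear FPKM in Meis1f/f 4-OHT and vehicle, and 2.73% and 4.90% in control 4-OHT and vehicle. Ear6 made up 9.19% and 11.4% in Meis1f/f 4-OHT and vehicle, and 19.4% and 24.8% in control 4-OHT and vehicle.

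**Figure D2:**
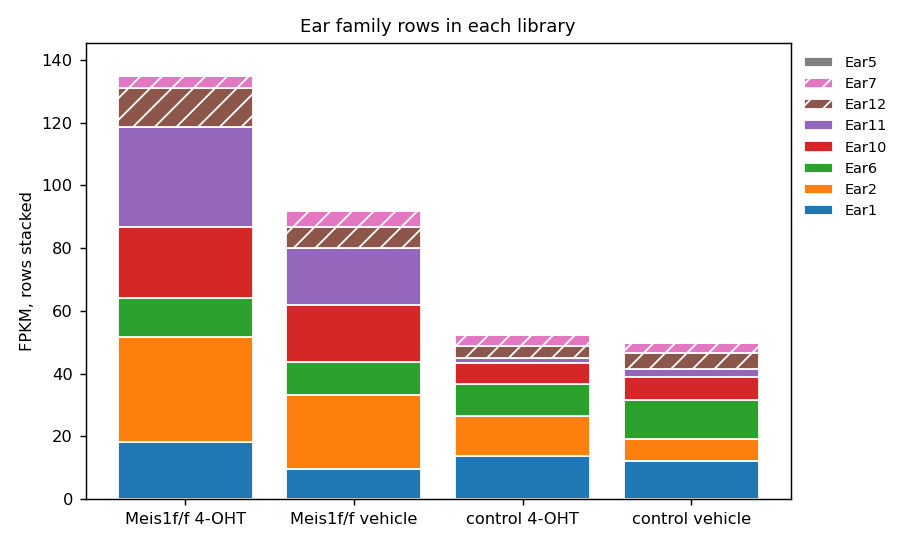
Stacked FPKM of the Ear rows in each library (bars start at 0, 1 bar per library; hatched rows were marked low in data by the authors). The stack was highest in Meis1f/f 4-OHT at 135 FPKM. Ear11 made up 23.7% and 20.0% of the stack in Meis1f/f 4-OHT and vehicle, and 2.73% and 4.90% in control 4-OHT and vehicle.

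**Figure D3:**
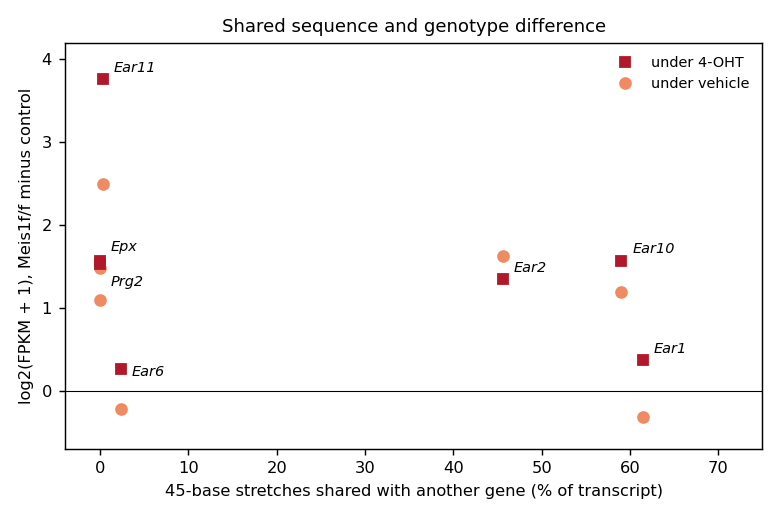
Share of 45-base stretches of each reference transcript that occur in another gene (x axis, percent) against the Meis1f/f minus control difference of log2(FPKM + 1) (y axis), squares under 4-OHT and circles under vehicle. Ear6 and Ear11 both lie near 0 on the x axis and had the smallest and the largest differences under 4-OHT among the genes drawn.

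The Ear promoters are shown because, like the coding sequences, they are copies of each other: over 300 bases Ear1 and Ear2 were 97.0% identical, Ear1 and Ear10 91.4%, and Ear6 79.0% to 80.7% identical to the others. RefSeq promoter windows on GRCm38.p6 were found for 6 of the 7 genes; there was none for Prg2. The stretches below run from 130 bases before to 20 bases after the annotated start, 5′ to 3′ on the gene's strand: Ear1 chr14:43819620-43819769 (minus strand), Ear2 chr14:44102524-44102673 (plus), Ear6 chr14:51853638-51853787 (plus) and Ear10 chr14:43923577-43923726 (minus). Capitals mark the GATA core GATAA read on the opposite strand.
Ear1: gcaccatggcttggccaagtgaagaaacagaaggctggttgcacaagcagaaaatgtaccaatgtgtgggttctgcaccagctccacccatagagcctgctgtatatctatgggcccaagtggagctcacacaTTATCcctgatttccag
Ear2: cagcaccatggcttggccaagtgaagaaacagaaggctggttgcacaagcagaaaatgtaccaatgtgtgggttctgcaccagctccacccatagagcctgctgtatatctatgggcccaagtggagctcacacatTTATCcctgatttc
Ear6: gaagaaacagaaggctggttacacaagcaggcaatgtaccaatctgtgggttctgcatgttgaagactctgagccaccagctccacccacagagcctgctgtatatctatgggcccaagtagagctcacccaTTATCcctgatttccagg
Ear10: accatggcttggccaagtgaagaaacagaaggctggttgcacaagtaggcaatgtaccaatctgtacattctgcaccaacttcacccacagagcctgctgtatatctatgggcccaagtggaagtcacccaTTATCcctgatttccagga
All 4 Ear windows held GATAA once, on the opposite strand, the stretch beginning at base 4 (Ear1), 7 (Ear2), 3 (Ear6) and 2 (Ear10), counted from 1 at the annotated start. On either strand GATAA was in 25.4% of 32851 promoter windows of 300 bases. The C/EBP core TTNNGNAA, likewise searched on both strands as was GAGGAA, was also in all 4 Ear windows and in 40.7% of all windows, and the PU.1 core GAGGAA was in none of the 4 and in 28.3% of all windows. These motifs did not overlap in the Ear windows. Epx had none of the 3 motifs in its window, and Il5ra had GATAA and GAGGAA. A match is a match of letters only.

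Counted by size, 4 of the 6 members that reached 1 FPKM, Epx, Prg2, Ear2 and Ear10, reached a log2 difference of at least 1 in favour of Meis1f/f cells under 4-OHT, and the same 4 did so under vehicle. Of all 10922 genes at that floor, 3.72% were higher and 1.61% lower under 4-OHT (5.33% in all), and 5.84% were higher and 2.11% lower under vehicle (7.95% in all). No member was lower by that size in either comparison. Ear2 and Ear10 are near-identical copies, so their calls are not separate. The summed Ear members differed by 0.98 under 4-OHT and 0.65 under vehicle, both short of 1. The median difference of the 6 members was 1.44 under 4-OHT and 1.15 under vehicle, beside 0.00 and -0.06 over all genes. The 4-OHT and vehicle comparisons share no library. With a pseudocount of 5 the difference of Ear10 under vehicle was 0.90, short of the threshold.

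**Figure D4:**
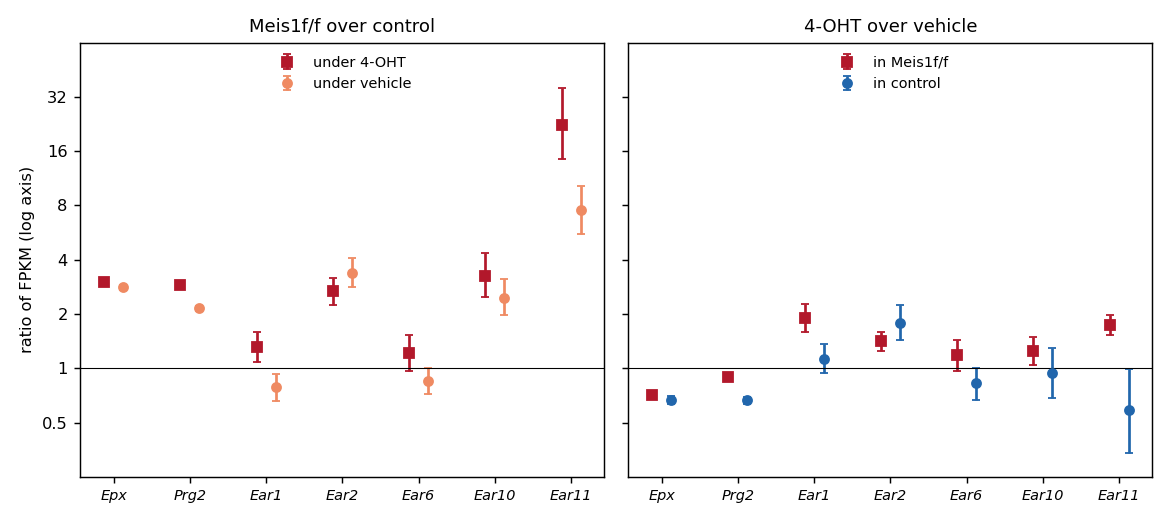
Ratios of FPKM on a log axis for the members above 1 FPKM and Ear11, with 95% exact counting intervals: left, Meis1f/f over control under 4-OHT (squares) and vehicle (circles); right, 4-OHT over vehicle in Meis1f/f (squares) and control cells (circles). Genotype ratios of Epx, Prg2, Ear2 and Ear10 lay between 2.15 and 3.37, and no member's 4-OHT ratio reached 2.

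Differences between 4-OHT and vehicle were smaller than those between the genotypes for Epx, Prg2, Ear2 and Ear10 and differed in sign between genes. Epx and Prg2 were lower with 4-OHT in both genotypes: the ratio of 4-OHT to vehicle for Epx was 0.714 in Meis1f/f cells (0.693 to 0.736) and 0.670 in control cells (0.637 to 0.706), and for Prg2 0.895 (0.870 to 0.920) and 0.664 (0.635 to 0.695). The Ear members were not lower together. Ear2 was higher with 4-OHT in both genotypes, with ratios of 1.42 in Meis1f/f cells (1.25 to 1.59) and 1.79 in control cells (1.44 to 2.23). With the Ear12 row added, the ratios of Ear2 were 1.51 in Meis1f/f cells and 1.34 in control cells. Ear1 was at a ratio of 1.90 in Meis1f/f cells (1.60 to 2.27) and 1.13 in control cells (0.941 to 1.37). Ear10 was at 1.25 (1.04 to 1.49) and 0.943 (0.687 to 1.29). Summed, the Ear members had ratios of 1.40 in Meis1f/f and 1.12 in control cells. Over all genes the median difference with 4-OHT was 0.11 in Meis1f/f cells as deposited and -0.00248 after median ratio rescaling of the libraries, under which Epx differed there by -0.62 in place of -0.48 and Prg2 by -0.30 in place of -0.16.

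By the size rule 0 of 6 members were called with 4-OHT in Meis1f/f cells and 0 of 6 in control cells, where 3.91% of all genes were called in Meis1f/f cells (1.63% higher and 2.28% lower) and 2.25% in control cells (1.37% higher and 0.879% lower). The difference of the 4-OHT effects, Meis1f/f minus control, was 0.08 for Epx, 0.43 for Prg2, 0.69 for Ear1, -0.27 for Ear2, 0.48 for Ear6 and 0.38 for Ear10, so 0 of 6 members reached 1, and 5.74% of all genes did (2.11% above and 3.63% below). These differences reuse the libraries of the comparisons they are taken from. With the Ear12 row inside it added, Ear2 was at 0.19. Across genes these differences followed transcript length (Spearman's rho -0.26). With that trend removed the values were 0.12 (Epx), 0.21 (Prg2), 0.46 (Ear1), -0.49 (Ear2), 0.24 (Ear6) and 0.14 (Ear10). Meis1 itself, the targeted gene, was at 7.38 FPKM in Meis1f/f 4-OHT, 11.8 in Meis1f/f vehicle, 12.1 in control 4-OHT and 11.6 in control vehicle, a ratio of 4-OHT to vehicle of 0.625 in Meis1f/f cells (0.563 to 0.692). Which of its exons are floxed is not stated in the labels.

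Library facts touch these comparisons as follows. Depth was estimated at 18.5, 42.7, 22.1 and 28.4 M reads in Meis1f/f 4-OHT, Meis1f/f vehicle, control 4-OHT and control vehicle, and between 10051 and 10425 symbols reached 1 FPKM per library. Meis1f/f vehicle was named for lane 1 in its sheet, unlike the other 3, which were named for lane 2, so lane and group cannot be told apart in any comparison that uses Meis1f/f vehicle. Both libraries of the genotype comparison under 4-OHT were named for lane 2. Epx, Prg2, Ear2 and Ear10 were higher in both genotype comparisons, and the part of lane in either was not tested. Differences that use Meis1f/f vehicle also followed transcript length (Spearman's rho across genes 0.25 for the genotypes under vehicle and -0.24 for 4-OHT in Meis1f/f cells, against 0.03 for the genotypes under 4-OHT; genes are not independent replicates). With that trend removed, Prg2, a transcript of 838 bases, differed between the genotypes under vehicle by 1.3 in place of 1.10. Each genotype is represented by its own cultures, so recombinase, floxed alleles and culture cannot be told apart.

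Basophil and mast cell markers moved the same way and further, and their part in the granule gene differences was not tested. Of 13 such markers at 1 FPKM or more, 11 passed the size rule with Meis1f/f above control under 4-OHT and 12 did under vehicle, and 0 were lower. The exception under both treatments was Kit, joined under 4-OHT by Il4. Their median differences were 2.55 and 2.69. The other 3 matched markers, Mcpt1, Tpsab1 and Mrgprb1, were under 1 FPKM in every library, and Tpsab1 and Mrgprb1 were listed at 0 in both control libraries. Their summed level over 16 matched markers was 2028 FPKM in Meis1f/f 4-OHT and 2515 in Meis1f/f vehicle, and 235 in control 4-OHT and 250.1 in control vehicle. Mcpt8, a basophil protease, was at 987, 1466, 112 and 113 FPKM in that order, and Cpa3, mast cell carboxypeptidase, at 652, 355, 62.2 and 54.2 FPKM. Prss34, another basophil protease, was at 104, 232, 24.4 and 34.1 FPKM, and Hdc, which makes histamine, at 89.4, 273, 14.9 and 16.9 FPKM. Basophils and eosinophils share early progenitors.

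Neutrophil granule genes did not follow. Of 12, 1 was higher in Meis1f/f cells under 4-OHT and the same number under vehicle, in each case Mmp9, and 0 were lower, with medians of -0.10 and -0.16. S100a8 was at 4620, 4836, 3254 and 3551 FPKM, and S100a9 at 3583, 4751, 2433 and 2611 FPKM. These calcium-binding proteins were the most abundant of the list. Elane, neutrophil elastase, was at 1696, 1351, 2044 and 1843 FPKM, Ctsg, cathepsin G, at 1128, 758, 1185 and 1208 FPKM, and Mpo, the neutrophil relative of Epx, at 1163, 710.2, 1280.1 and 898 FPKM. S100a8, S100a9, Elane, Ctsg and Mpo, picked from the top of the list, were above Prg2 in every library. Of the rest of the list, Ngp was also above Prg2 in every library, and Prtn3 in all but Meis1f/f vehicle. Ltf, Camp, Lcn2, Mmp8 and Mmp9 were below Prg2 in every library. Of 8 monocyte markers 0 were higher and 2 were lower under each treatment, with medians of -0.38 under 4-OHT and -0.51 under vehicle. F13a1 was at 37.5, 115, 284 and 237 FPKM, Ly6c1 at 82.5, 71.2, 149.8 and 121 FPKM, Ccr2 at 82.2, 43.5, 107 and 60.8 FPKM, and Cd14 at 27.3, 72.2, 19.7 and 41.4 FPKM.

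**Figure D5:**
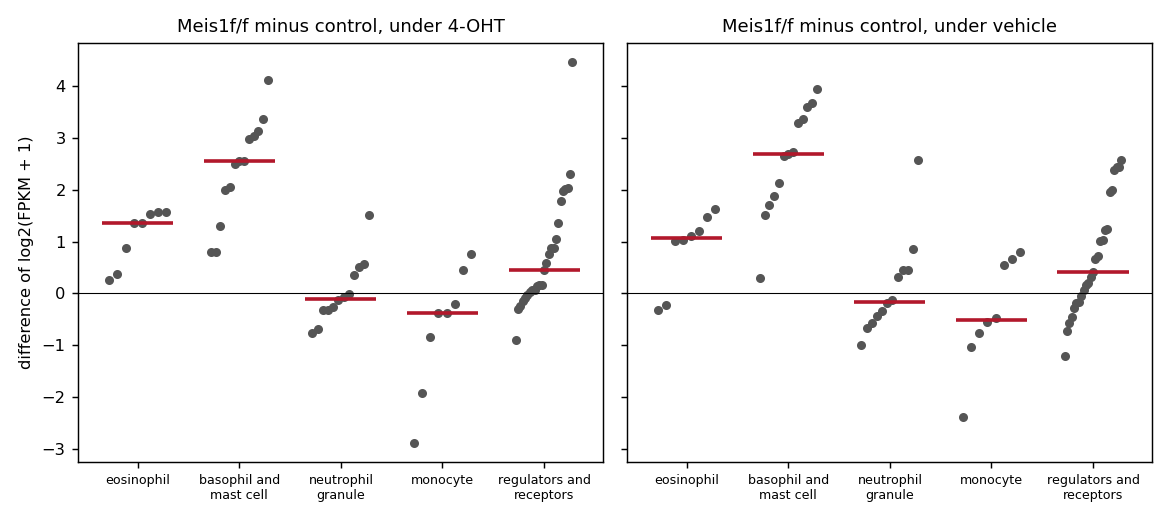
Meis1f/f minus control difference of log2(FPKM + 1) for each gene at 1 FPKM or more in 5 marker lists, under 4-OHT (left) and vehicle (right); each point is 1 gene and red bars are medians. The eosinophil medians were 1.35 and 1.07, below those of the basophil and mast cell markers (2.55 and 2.69) and above those of the neutrophil and monocyte lists.

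Factors and receptors of the eosinophil lineage were uneven. Of 25 genes of this list at 1 FPKM or more (32 of 35 names were matched), 8 were higher and 0 lower in Meis1f/f cells under 4-OHT, and 10 were higher and 1 lower (Irf8) under vehicle, with medians of 0.45 and 0.40. The list also holds Prg3 and Siglec5, counted above among the eosinophil markers. With 4-OHT 1 was higher and 1 lower in each genotype. Gata1, which specifies eosinophils as well as erythroid and mast cells, was at 12.3 FPKM in Meis1f/f 4-OHT, 19.8 in Meis1f/f vehicle, 2.24 in control 4-OHT and 2.82 in control vehicle. Gata2 was at 54.6, 105, 10.3 and 16.9 FPKM, and Zfpm1 (FOG-1), a GATA-1 cofactor known in chicken to oppose the eosinophil fate, at 8.14, 18.6, 1.65 and 2.74 FPKM. All 3 were higher in both Meis1f/f libraries than in both control libraries. The C/EBP factors and PU.1, which act with GATA-1 on granule genes, differed by less than 1 in both comparisons. Cebpe was at 29.1, 22.4, 28.3 and 27.7 FPKM, Cebpa at 55.8, 41.3, 62.2 and 62.0, Cebpb at 108, 174, 78.7 and 131, and Sfpi1 (PU.1) at 143, 145, 128 and 151 FPKM. Irf8, whose product favours monocyte fate, was at 13.4, 8.40, 26.0 and 20.9 FPKM.

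The beta chains of the cytokine receptors were higher in Meis1f/f cells. Csf2rb, shared by the receptors of IL-3, GM-CSF and IL-5, was at 205, 242, 97.8 and 101 FPKM and Csf2rb2, the IL-3 specific chain of the mouse, at 126, 159, 30.2 and 28.4 FPKM. The alpha chains differed by less than 1: Csf2ra, of the GM-CSF receptor, was at 34.6, 30.8, 37.0 and 24.5 FPKM and Il3ra, of the IL-3 receptor, at 7.75, 9.27, 7.42 and 8.0 FPKM. Il5 itself was listed at 0 in 3 libraries and at 0.0315 FPKM in control 4-OHT. Ccl24 (eotaxin-2), a chemokine that attracts eosinophils, had the largest genotype difference of the list under 4-OHT, at 68.1, 44.3, 2.11 and 10.4 FPKM. Ltc4s, leukotriene C4 synthase, was at 12.1, 4.97, 2.32 and 2.61 FPKM, Id2 at 92.7, 96.3, 61.4 and 24.0 FPKM, and Emr1 (F4/80, carried by mouse eosinophils and macrophages) at 47.3, 31.6, 27.6 and 19.7 FPKM. Ikzf1, Id1, Lyn, Stat5a, Stat5b and Xbp1 differed by less than 1 in both genotype comparisons, with log2 differences from -0.31 (Lyn) to 0.88 (Stat5a) under 4-OHT and from -0.72 (Xbp1) to 0.16 (Stat5b) under vehicle. Xbp1, a factor eosinophil precursors need, was at 299, 248, 308 and 410.2 FPKM.

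Among genes over 5 FPKM the patterns most like that of Epx across the 4 libraries, by Euclidean distance of centred log2(FPKM + 1) values, were those of Fyn, Car4, Kcnk5, Asprv1 and Dkkl1 (distances 0.11 to 0.19 over 8284 genes), with Prg2 at place 13. Car4, carbonic anhydrase 4, was at 47.0 FPKM in Meis1f/f 4-OHT, 59.3 in Meis1f/f vehicle, 14.1 in control 4-OHT and 20.6 in control vehicle. The nearest to Prg2 were Inhba, Prg3, Ccl3, Sept1 and Bcar3 (0.17 to 0.23). Those nearest to the summed Ear members were Ccng1, Stat4, Etv3, Gna15 and Tbc1d4 (0.07 to 0.11), while Epx stood at place 5525 in that order. The Ear sum and Epx shared the direction of the genotype difference, but not its size or the order of 4-OHT and vehicle. The added 1 FPKM narrows the differences of low genes, so places of low genes depend on it. Fyn was at 4.22 FPKM in Meis1f/f 4-OHT, 5.71 in Meis1f/f vehicle, 0.608 in control 4-OHT and 1.45 in control vehicle. With 4 libraries such likeness is only a description.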

How the data were processed

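RNA was measured in 4 libraries, 1 per group, mapped to groups by title. Bowtie and mm8 are named per the submitters' processing notes; the quantifier, versions, annotation release, read length and strandedness are not given in the sources. Deposited positions differ from GRCm38 and their build was not settled. The FPKM values were computed by the authors per transcript row, per the file headers. Coverage is the authors' signal of read depth per base. Divided by FPKM, it was constant within a library and gave relative depth. Coverage times length of low single-row genes over 2000 bases peaked at 44.5 to 45.4 bases and again at 86.6 to 90.1 bases, taken as 1 and 2 reads, which gave the estimated depths; PCR copies are not independent molecules.

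Rows with status OK in all 4 libraries were used (394 of 28107 had another status in at least 1), with the highest-mean row per symbol and a floor of 1 FPKM in a library. Differences are of log2(FPKM + 1), which understates those of low genes, and a size of at least 1 was the threshold. Ratio intervals are 95% Clopper-Pearson from estimated reads. Computations used numpy 2.4.6, pandas 2.3.3 and scipy 1.17.1, and were tested on simulated data. The members and lists were chosen with earlier results of these data known. Named are the 7 genes, the Ear sum, lineage and RNase A genes reaching 5 FPKM, and the 4 genes of highest mean in each other marker list. Also named are the 5 genes of nearest pattern to Epx, Prg2 and the Ear sum, and Meis1. Ccr3, Il5, Mmp9, Mpo, Kit, Il4, Mcpt1, Tpsab1, Mrgprb1 and rows under that level were named after their values were seen. So were Ltf, Camp, Lcn2, Mmp8, Ngp and Prtn3.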

Additional observations from a re-analysis of the deposited data

Results flagged for a closer look

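In 3 of the Ear members the sign of a difference turned between groups; the difference between the groups was not tested. For Ear1 the log2 difference of Meis1f/f from control was 0.37 under 4-OHT and -0.32 under vehicle. For Ear6 it was 0.26 under 4-OHT and -0.22 under vehicle, and the difference of 4-OHT from vehicle was 0.22 in Meis1f/f cells and -0.26 in control cells; the counting intervals of all 4 Ear6 ratios hold 1, and with the Ear7 row inside it added, the genotype ratio under vehicle was 0.997. For Ear10 the difference of 4-OHT from vehicle was 0.30 in Meis1f/f cells and -0.07 in control cells. The interval of that control ratio held 1 (0.687 to 1.29), and with the length trend removed the control difference was 0.05.

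The row of Ear12, left out of the comparisons for its status, held a signal of 12.3 FPKM in Meis1f/f 4-OHT, 6.59 in Meis1f/f vehicle, 3.74 in control 4-OHT and 5.09 in control vehicle. It lies inside the Ear2 row. With it added, the difference of the 4-OHT effects was 0.19 for Ear2 in place of -0.27.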

How the results depend on the processing

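No paired analysis was possible because each group has 1 library. The alternatives were pseudocounts of 0.1 and 5, no floor or a floor of 5 FPKM, summed rows, median ratio and upper quartile rescaling, removal of the length trend, and all rows whatever their status. Under no floor, a floor of 5 FPKM, summed rows and all rows, the value of every member above 1 FPKM was fixed in advance. Each such member has 1 usable row that exceeds 5 FPKM in a library. The 4 members higher between the genotypes were Epx, Prg2, Ear2 and Ear10 under every one of the 9, apart from a pseudocount of 5 under vehicle, which left 3 (Epx, Prg2, Ear2); members called with 4-OHT or in the difference of the effects stayed at 0. Over the alternatives Epx differed between the genotypes by 1.47 to 1.58 under 4-OHT and 1.42 to 1.56 under vehicle, and Prg2 by 1.5 to 1.53 and 1.09 to 1.3. The sign turned for Ear10 with 4-OHT in control cells (-0.13 to 0.05) and for Epx in the difference of the effects (-0.01 to 0.12). Of 270 member values, which include those fixed in advance, 16 moved beyond counting error and 0 of the called ones changed sign.

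Counts over all genes called in either direction depended on the pseudocount and floor, by construction. In the order 4-OHT in Meis1f/f cells, 4-OHT in control cells, genotypes under 4-OHT, genotypes under vehicle and difference of the effects, they were 427, 246, 582, 868 and 627 as reported, 856, 682, 984, 1450 and 1148 with a pseudocount of 0.1, and 110, 33, 201, 292 and 162 with one of 5. A floor of 5 FPKM gave 159 (4-OHT in control cells), 368 (genotypes under 4-OHT) and 402 (difference of the effects). With 4-OHT in Meis1f/f cells 178 genes were higher and 249 lower as reported, against 114 and 350 under median ratio and 124 and 317 under upper quartile rescaling. A pseudocount of 5 gave 13 higher and 20 lower in control cells, against 150 and 96. Depth limits the statements on Il5ra and Ccr3.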

Other observations

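Other ribonuclease A genes on chromosome 14 had levels of their own. Rnase6, expressed in monocytes and other myeloid cells, was at 9.19 FPKM in Meis1f/f 4-OHT, 8.84 in Meis1f/f vehicle, 4.41 in control 4-OHT and 1.56 in control vehicle, so it was higher with 4-OHT in control cells by the size rule and not in Meis1f/f cells (log2 difference 0.05); the difference of the effects was -1.03. Rnase4 was at 4.45, 5.79, 2.27 and 4.75 FPKM in that order, and differed by less than 1 in every comparison. Of 20 matched genes of the Ear and RNase A list outside the 7, 5 reached 1 FPKM with a usable row.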
